A study of Caenorhabditis elegans with 6 samples.

Results

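The enzymes of glycolysis, gluconeogenesis, the pyruvate dehydrogenase step, the tricarboxylic acid (TCA) cycle and the glyoxylate bypass were examined in *C. elegans* through 38 genes, out of 17682 in the files. These 38 genes are a list of enzymes made by name and pathway, with no rule on their measured values, although earlier results of these data were known when it was made. All 38 were matched by symbol to an identifier in the files, and all 38 passed the filter on low values, as did 7333 genes in total. This filter kept genes with 10 or more reads in all 3 libraries of either treatment. Of the 38 genes, 37 passed it in both treatments, while *pfk-1.1* passed through the control RNAi libraries alone.

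The animals were sterile TJ1060 hermaphrodites, a strain whose genotype is labelled *fem-15(b26);spe-9(hc88)*, and both treatments used this same strain. Batches of about 10000 worms were raised at 25°C until day 1 of adulthood, and each batch was then divided between bacteria making double-stranded RNA against *unc-62* (*unc-62* RNAi, 3 libraries) and bacteria with the empty vector (control RNAi, 3 libraries). RNA was taken from whole worms on day 4 of adulthood, after 3 days at 20°C. Per the paper's general RNAi methods, plates for knockdown in adults also held FUDR, ampicillin and IPTG. *unc-62* encodes a homeodomain transcription factor of the Homothorax family, and the comparison asked which transcripts changed when its mRNA was targeted in adults. No germline or tissue was removed, and adult knockdown by feeding reaches tissues to different degrees, so each value is a whole-body sum.

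Libraries were made by 3′SEQ, in which cDNA is primed from the poly-A tail so that reads fall near the 3′ end of a transcript. Values are RPM, read numbers scaled to the reads of a library that mapped uniquely to transcripts, of which each library held between 15188765 and 22868980. The 3 *unc-62* RNAi libraries were sequenced in one lane and the 3 control RNAi libraries in another, so lane and treatment cannot be told apart. The kept transcript of *unc-62* itself had 17, 39 and 25 reads in *unc-62* RNAi libraries and 27, 31 and 26 reads in control RNAi libraries, which overlapped. Its log2 fold change was -0.27 (SE 0.28, adjusted p = 0.746 by limma), so no lower level of the targeted transcript was detected at this depth.

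As background, glycolysis splits glucose into pyruvate in the cytosol, and gluconeogenesis runs most of the same reactions backwards, with a few enzymes of its own for the irreversible steps. Pyruvate dehydrogenase turns pyruvate into acetyl-CoA inside mitochondria, where the TCA cycle oxidises it. Nematodes also have the glyoxylate bypass, which lets acetyl-CoA from stored fat be built into sugar. The intestine, hypodermis and muscle of the worm are its main metabolic tissues.

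None of the 38 central carbon genes passed the threshold, an adjusted p under 0.1 by limma with Benjamini-Hochberg adjustment over all tested genes. Over all 7333 tested genes the same test called 96 (1.31%), of which 36 were higher (0.491%) and 60 lower (0.818%) in *unc-62* RNAi, so a count of 0 among 38 lies near the background. Adjusted p-values of the 38 genes ran between 0.343 and 0.972. At an unadjusted p under 0.05 there was 1 gene, *ipgm-1*, against 13.4% of all tested genes. The quasi-likelihood test of edgeR, DESeq2, rank products and limma with no replicate block also called 0 of the 38, where they called 1.38%, 4.01%, 0.914% higher with 1.57% lower, and 1.94% of tested genes. In whole worms, fewer cells of a type and less RNA per cell cannot be told apart.

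The 38 log2 fold changes had a median of 0.12, beside 0.04 over all tested genes, and lay between -0.85 for *pfk-1.1* and 1.01 for *gpd-4*. Of the 38, 27 (71.1%) were above 0, against 54.1% of all tested genes. Their SD was 0.37 on the log2 scale, against 0.67 for all tested genes. Only *gpd-4* exceeded 1 in size, 2.63% of the list against 8.88% of all tested genes. A 95% interval that lay wholly between -1 and 1 was found for 25 of the 38 (65.8%), against 53% of all tested genes. For these 25 genes a change larger than 1 on the log2 scale lay outside the interval, and for the other 13 it did not.

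**Figure D1:**
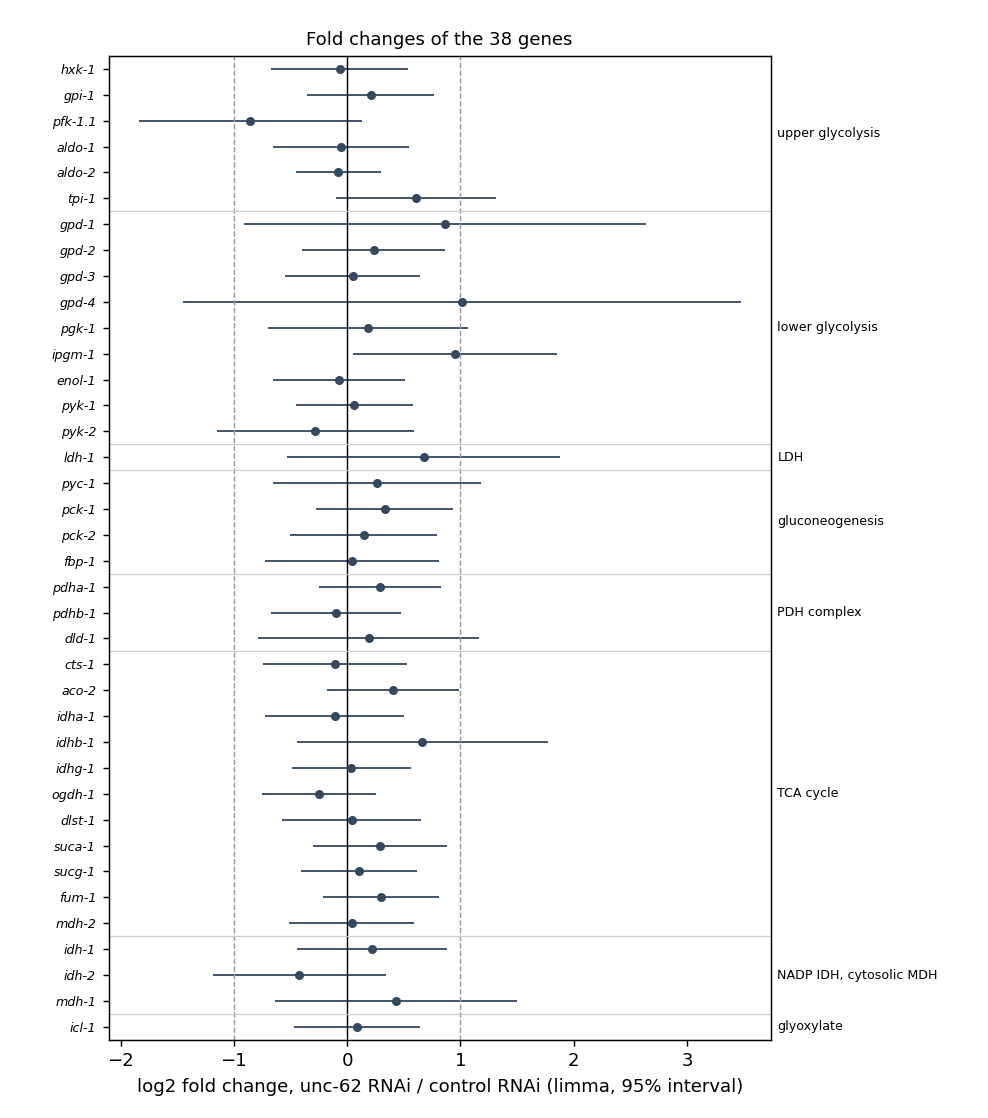
The log2 fold change, unc-62 RNAi over control RNAi, is plotted on the horizontal axis for each of the 38 genes, grouped by role, with its 95% interval from limma over 3 replicates; dashed lines mark -1 and 1. All intervals but that of *ipgm-1* cross 0, and the widest belong to *gpd-4* and *gpd-1*.

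Most reads of the set came from a single gene. *aldo-2*, an aldolase, which splits fructose 1,6-bisphosphate in glycolysis and joins its products in gluconeogenesis, held 75.6% ± 5.60 of the summed RPM of the 38 genes in *unc-62* RNAi and 79.8% ± 3.68 in control RNAi (SD, n = 3 each). These are shares of reads, not corrected for length or for the part of each transcript to which a read can map uniquely. The sum over all 38 genes was 3495, 3478 and 3283 RPM in *unc-62* RNAi replicates 1, 2 and 3, against 3297, 3249 and 3519 RPM in control RNAi replicates 1, 2 and 3. Without *aldo-2* the sums were 844, 657 and 988 RPM in *unc-62* RNAi, against 790, 647 and 584 RPM in control RNAi. In both sums the treatments overlapped, and the order of the remaining values is by replicate number throughout.

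The 6 genes of upper glycolysis had a median log2 fold change of -0.06, with 2 above and 4 below 0, and a lowest adjusted p of 0.452. *aldo-2* had 2651, 2821 and 2295 RPM in *unc-62* RNAi, against 2508, 2602 and 2935 RPM in control RNAi. The treatments overlapped, the library with the least being *unc-62* RNAi replicate 3 and that with the most its control. Its log2 fold change was -0.08 (95% interval -0.45 to 0.30, adjusted p = 0.865 by limma), the narrowest interval of the 38. The other aldolase, *aldo-1*, had 28.5, 22.7 and 28.6 RPM in *unc-62* RNAi, against 26.9, 29.9 and 24.5 RPM in control RNAi, also overlapping, with a log2 fold change of -0.05. Neither aldolase therefore differed by more than its replicate spread.

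*pfk-1.1* encodes phosphofructokinase, which commits hexose to glycolysis, and it had the lowest fold change of the list. Its reads were few, 27, 18 and 8 in *unc-62* RNAi libraries, against 22, 29 and 29 in control RNAi libraries. That is 1.58, 0.787 and 0.432 RPM in *unc-62* RNAi, against 1.45, 1.7 and 1.35 RPM in control RNAi. In *unc-62* RNAi replicates 2 and 3 the level lay below all controls, while replicate 1 lay among them, so the treatments overlapped. The log2 fold change was -0.85 (95% interval -1.84 to 0.13, adjusted p = 0.452 by limma).

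Triose-phosphate isomerase, *tpi-1*, interconverts the products of aldolase; it is given in full because of a call made without replicate 3 and was chosen after its values were seen. It had 8.12, 6.87 and 4.86 RPM in *unc-62* RNAi, against 3.82, 3.86 and 4.89 RPM in control RNAi. Replicates 1 and 2 on *unc-62* RNAi lay above every control, and replicate 3 stood level with its own control. The log2 fold change was 0.61 (95% interval -0.10 to 1.31, adjusted p = 0.457 by limma). Without replicate 3 it was 0.92 with an adjusted p of 0.0064 by limma (0.45 to 0.90 in its other alternatives), the only one of the 38 genes called in that fit, in which 1180 of 7701 genes (15.3%) were called. Hexokinase *hxk-1*, which phosphorylates incoming glucose, and the isomerase *gpi-1*, which follows it, had log2 fold changes of -0.07 and 0.21.

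**Figure D2:**
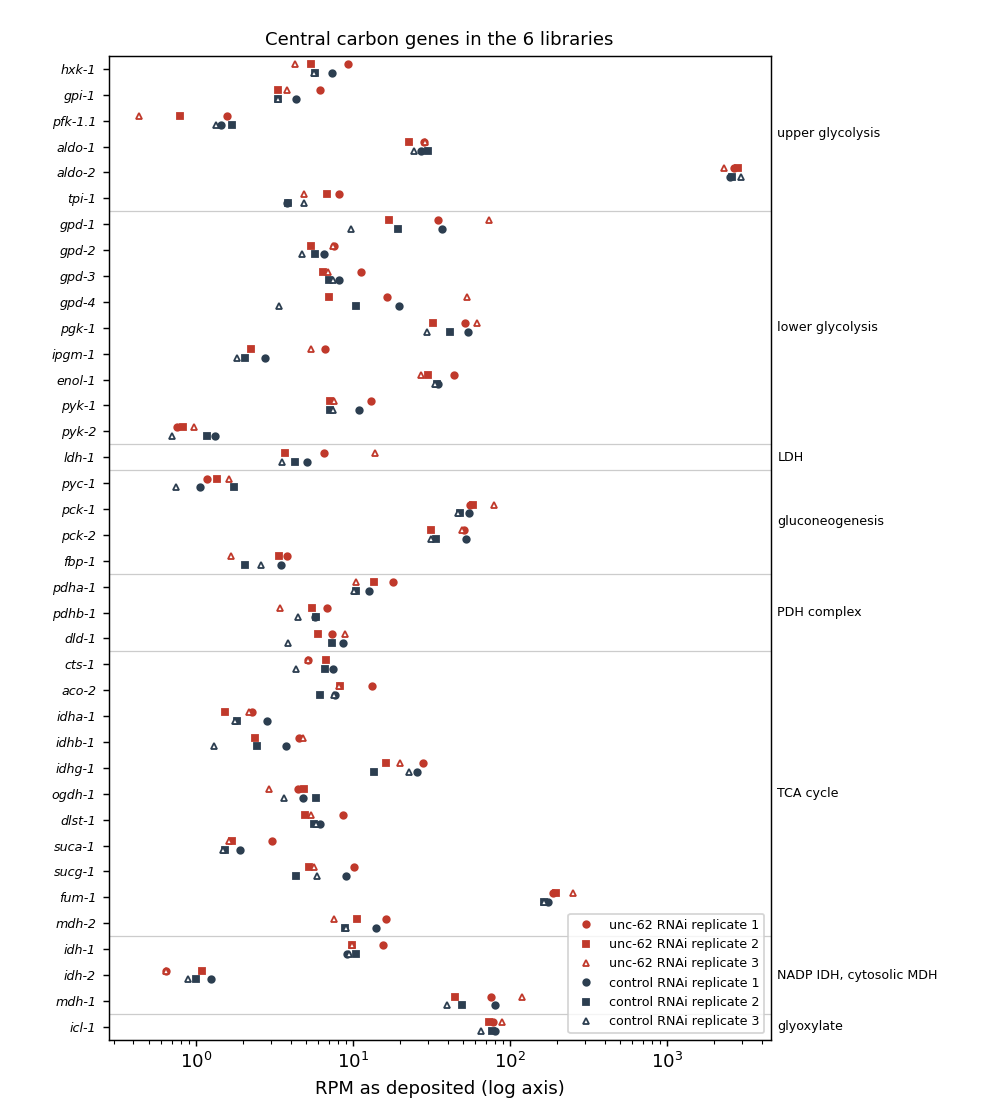
RPM in each of the 6 libraries is plotted on a log axis for the 38 genes, with unc-62 RNAi libraries in red on the upper line of each gene and control RNAi libraries in dark blue on the lower; circles, squares and open triangles are replicates 1, 2 and 3. *aldo-2* sits between 2295 and 2935 RPM in all 6 libraries, while the open triangles of *gpd-1* and *gpd-4* are the farthest apart between treatments.

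Lower glycolysis, from glyceraldehyde 3-phosphate to pyruvate, was covered by 9 genes with a median log2 fold change of 0.18, of which 7 were above and 2 below 0. Their summed level was 186, 108 and 244 RPM in *unc-62* RNAi, against 175, 129 and 98.1 RPM in control RNAi. The sum of replicate 3 was the highest of the 6 in *unc-62* RNAi and the lowest of the 6 in control RNAi, whereas replicate 2 was lower in *unc-62* RNAi than in its control. The lowest adjusted p among the 9 was 0.343, for *ipgm-1*.

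Glyceraldehyde-3-phosphate dehydrogenase, which makes the first NADH of glycolysis, is encoded by *gpd-1* to *gpd-4*. These genes are close copies of each other, and reads that mapped equally well to more than one place were dropped, so how reads divide among the 4 is uncertain. *gpd-1* had 34.9, 16.8 and 73.8 RPM in *unc-62* RNAi, against 36.9, 19.3 and 9.64 RPM in control RNAi. *gpd-4* had 16.5, 7.0 and 52.9 RPM in *unc-62* RNAi, against 19.8, 10.5 and 3.40 RPM in control RNAi. Each was lower in *unc-62* RNAi than in its control in replicates 1 and 2 and far higher in replicate 3, and the treatments overlapped. The log2 ratios within replicates were -0.10, -0.27 and 2.95 for *gpd-1*, and -0.27, -0.65 and 3.96 for *gpd-4*. Over the 3 replicates the log2 fold changes were 0.86 (95% interval -0.91 to 2.63, adjusted p = 0.681 by limma) for *gpd-1* and 1.01 (-1.45 to 3.47, adjusted p = 0.724 by limma) for *gpd-4*. Without replicate 3 both were below 0, at -0.16 for *gpd-1* and -0.44 for *gpd-4*.

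The other pair of copies did not share this split between replicates. *gpd-2* had 7.53, 5.42 and 7.46 RPM in *unc-62* RNAi, against 6.52, 5.73 and 4.75 RPM in control RNAi. *gpd-3* had 11.2, 6.47 and 6.92 RPM in *unc-62* RNAi, against 8.10, 7.08 and 7.50 RPM in control RNAi. In both genes the treatments overlapped and no library stood far from the rest, and the log2 fold changes were 0.23 for *gpd-2* and 0.05 for *gpd-3*.

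*ipgm-1*, the cofactor-independent phosphoglycerate mutase, a form of the enzyme that mammals lack, had the lowest p of the list. It had 6.66, 2.23 and 5.4 RPM in *unc-62* RNAi, against 2.77, 2.05 and 1.82 RPM in control RNAi. Replicates 1 and 3 on *unc-62* RNAi lay above every control, while replicate 2 lay among them. The log2 fold change was 0.95 (95% interval 0.05 to 1.85), with an unadjusted p of 0.042 and an adjusted p of 0.343 by limma; it was positive in 3 of 3 replicates and was not called.

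Phosphoglycerate kinase, *pgk-1*, makes the first ATP of the pathway and had the most reads of this group. It had 51.4, 32.3 and 61.3 RPM in *unc-62* RNAi, against 53.7, 41.8 and 29.5 RPM in control RNAi. Like *gpd-1*, it was lower in replicates 1 and 2 and higher in replicate 3, for a log2 fold change of 0.18 (95% interval -0.70 to 1.07, adjusted p = 0.865 by limma). Enolase, *enol-1*, had a log2 fold change of -0.07.

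Pyruvate kinase closes glycolysis and is encoded by *pyk-1* and *pyk-2*. *pyk-1* had 13.0, 7.13 and 7.51 RPM in *unc-62* RNAi, against 11, 7.13 and 7.41 RPM in control RNAi, so replicates 2 and 3 were level with their controls. *pyk-2* had 0.759, 0.831 and 0.973 RPM in *unc-62* RNAi, against 1.32, 1.17 and 0.699 RPM in control RNAi, and was lower in replicates 1 and 2 alone. Their log2 fold changes were 0.06 and -0.28, with adjusted p-values of 0.928 and 0.78 by limma.

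Lactate dehydrogenase, *ldh-1*, regenerates NAD+ by reducing pyruvate. It had 6.54, 3.67 and 13.8 RPM in *unc-62* RNAi, against 5.07, 4.27 and 3.54 RPM in control RNAi. Replicate 3 on *unc-62* RNAi held the highest level of the 6, and the treatments overlapped through replicate 2. The log2 fold change was 0.68 (95% interval -0.53 to 1.88, adjusted p = 0.652 by limma), and 0.05 without replicate 3.

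The 4 genes grouped under gluconeogenesis all had a log2 fold change above 0, as had 54.1% of all tested genes. Their median was 0.20 and their lowest adjusted p was 0.659 by limma. When a replicate was left out, *pyc-1*, *pck-2* and *fbp-1* each fell below 0 in some fit, at lowest -0.13, -0.10 and -0.25. Phosphoenolpyruvate carboxykinase, the step from oxaloacetate to phosphoenolpyruvate, is encoded by *pck-1* and *pck-2*. *pck-1* had 55.9, 58.2 and 79.6 RPM in *unc-62* RNAi, against 55.0, 48.0 and 46.8 RPM in control RNAi. These RPM values did not overlap between treatments, although replicate 1 on *unc-62* RNAi was close to its control. After the TMM scaling used in the test they overlapped. The log2 fold change of *pck-1* was 0.33 (95% interval -0.27 to 0.94, adjusted p = 0.659 by limma). *pck-2* had 51.3, 31.2 and 49.3 RPM in *unc-62* RNAi, against 52.3, 33.8 and 31.4 RPM in control RNAi, with a log2 fold change of 0.15. It overlapped, being higher in replicate 3 alone.

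Pyruvate carboxylase, *pyc-1*, makes oxaloacetate from pyruvate, and fructose-1,6-bisphosphatase, *fbp-1*, reverses the step of phosphofructokinase. *pyc-1* had 1.17, 1.36 and 1.62 RPM in *unc-62* RNAi, against 1.05, 1.75 and 0.745 RPM in control RNAi. *fbp-1* had 3.80, 3.37 and 1.68 RPM in *unc-62* RNAi, against 3.49, 2.05 and 2.61 RPM in control RNAi. The treatments overlapped in both, with log2 fold changes of 0.26 for *pyc-1* and 0.04 for *fbp-1*. *fbp-1* had the highest adjusted p of the list, 0.972 by limma.

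Pyruvate dehydrogenase links glycolysis to the TCA cycle, and 3 of its subunits were on the list. The E1 alpha subunit, *pdha-1*, had 18.0, 13.6 and 10.4 RPM in *unc-62* RNAi, against 12.6, 10.4 and 10.1 RPM in control RNAi. It was higher than its control in 3 of 3 replicates, by the least in replicate 3, and its log2 fold change was 0.29 (95% interval -0.25 to 0.83, adjusted p = 0.663 by limma). The E1 beta subunit *pdhb-1*, its partner in the same heterotetramer, had a log2 fold change of -0.10. *dld-1*, the E3 subunit that other dehydrogenase complexes share, had one of 0.19.

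The 11 genes of the TCA cycle had a median log2 fold change of 0.04, with 8 above and 3 below 0, a range of -0.25 to 0.66, and a lowest adjusted p of 0.566 for aconitase, *aco-2*. Their sum was 284, 257 and 315 RPM in *unc-62* RNAi, against 256, 223 and 228 RPM in control RNAi. These sums, before TMM scaling, parted only narrowly, at 257 RPM in *unc-62* RNAi against 256 RPM in control RNAi. The sums of every other role overlapped between treatments. Most of these reads belonged to fumarase, *fum-1*, which hydrates fumarate to malate. *fum-1* had 188, 195 and 252 RPM in *unc-62* RNAi, against 173, 166 and 165 RPM in control RNAi. In RPM all 3 *unc-62* RNAi libraries lay above all 3 controls, by a small margin in replicate 1. After the TMM scaling used in the test the treatments overlapped. The log2 fold change was 0.30 (95% interval -0.21 to 0.81, adjusted p = 0.638 by limma). *ogdh-1*, a subunit of 2-oxoglutarate dehydrogenase, was the only gene of the 38 lower than its control in 3 of 3 replicates, with a log2 fold change of -0.25 (adjusted p = 0.679 by limma).

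The subunits of NAD-dependent isocitrate dehydrogenase, which work in one complex, spread from -0.11 for *idha-1* through 0.04 for *idhg-1* to 0.66 for *idhb-1* on the log2 scale. *idhb-1* had 4.55, 2.36 and 4.81 RPM in *unc-62* RNAi, against 3.75, 2.46 and 1.30 RPM in control RNAi. It overlapped, and its within-replicate log2 ratio was 1.86 in replicate 3, against 0.26 and -0.13 in replicates 1 and 2. Without replicate 3 its log2 fold change was 0.08. Citrate synthase *cts-1*, which opens the cycle, had a log2 fold change of -0.11. *dlst-1*, the E2 subunit of 2-oxoglutarate dehydrogenase, and the succinyl-CoA ligase subunits *suca-1* and *sucg-1* had log2 fold changes of 0.04, 0.29 and 0.10.

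Malate dehydrogenase has a mitochondrial form, *mdh-2*, and a cytosolic form, *mdh-1*, which together carry reducing power across the mitochondrial membrane. *mdh-2* had 16.1, 10.6 and 7.57 RPM in *unc-62* RNAi, against 14.0, 8.89 and 9.09 RPM in control RNAi, which overlapped. *mdh-1* had 75.5, 44.9 and 119.3 RPM in *unc-62* RNAi, against 79.9, 49.6 and 39.6 RPM in control RNAi. It showed the replicate pattern of *gpd-1*, lower in replicates 1 and 2 and highest of all 6 libraries in *unc-62* RNAi replicate 3. The log2 fold changes were 0.04 for *mdh-2* and 0.43 (95% interval -0.64 to 1.5, adjusted p = 0.728 by limma) for *mdh-1*.

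The NADP-dependent isocitrate dehydrogenases supply NADPH, in the cytosol for *idh-1* and in mitochondria for *idh-2*. *idh-1* had 15.5, 9.84 and 9.89 RPM in *unc-62* RNAi, against 9.15, 10.5 and 9.41 RPM in control RNAi. *idh-2* had 0.642, 1.09 and 0.649 RPM in *unc-62* RNAi, against 1.25, 0.994 and 0.885 RPM in control RNAi. Their fold changes pointed opposite ways, 0.22 for *idh-1* and -0.42 for *idh-2* on the log2 scale, the treatments overlapped in both, and neither passed the test (adjusted p = 0.770 and 0.657 by limma). *icl-1* encodes a single protein with both activities of the glyoxylate bypass, isocitrate lyase and malate synthase. It had 77.6, 73.8 and 88.4 RPM in *unc-62* RNAi, against 80.6, 76.7 and 64.9 RPM in control RNAi, and was level in replicates 1 and 2. Its log2 fold change was 0.09 (95% interval -0.47 to 0.64, adjusted p = 0.902 by limma).

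Counted over the list, 3 genes had RPM in *unc-62* RNAi libraries wholly above the controls, *pck-1*, *aco-2* and *fum-1* (7.89%, against 6.44% of all tested genes), and 0 had them wholly below (6.93% of all tested genes). After TMM scaling 4 genes did so, *tpi-1*, *pdha-1*, *aco-2* and *suca-1* (10.5%, against 7.02%), and 0 were wholly below (8.24%). *aco-2* was the only gene in both counts. Higher in 3 of 3 replicates were 7 genes, *tpi-1*, *ipgm-1*, *pck-1*, *pdha-1*, *aco-2*, *suca-1* and *fum-1* (18.4%, against 16.4% of all tested genes). Lower in 3 of 3 was *ogdh-1* alone (2.63%, against 19.8%). The shares of the list that were higher by these counts lie near those of all tested genes.

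**Figure D3:**
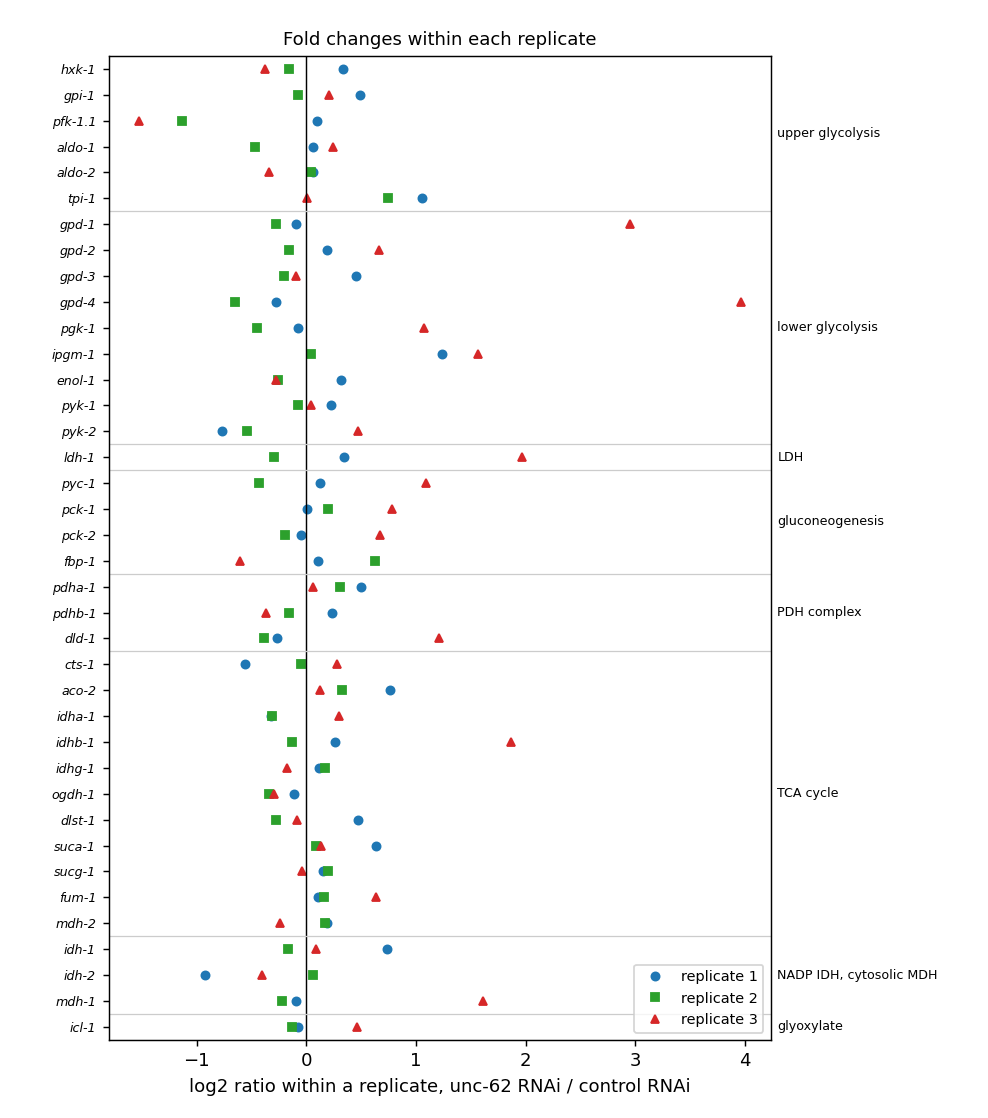
The log2 ratio of unc-62 RNAi to control RNAi within each replicate is plotted on the horizontal axis for the 38 genes, with replicate 1 as circles, replicate 2 as squares and replicate 3 as triangles. Circles and squares mostly lie within 1 of zero, while 9 triangles lie above 1, that of *gpd-4* at 3.96.

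Replicate 3 spread the list more than the other replicates did. The SD of the 38 within-replicate log2 ratios was 0.43, 0.34 and 1.02 in replicates 1, 2 and 3, against 0.66, 0.70 and 1.23 over all tested genes. In replicate 3 the ratio exceeded 1 for 9 genes, *gpd-1*, *gpd-4*, *pgk-1*, *ipgm-1*, *ldh-1*, *pyc-1*, *dld-1*, *idhb-1* and *mdh-1* (23.7%, against 15.6% of all tested genes). In replicate 1 it did so for *tpi-1* and *ipgm-1* (5.26%, against 4.7%), and in replicate 2 for 0 genes (0%, against 4.17%). Below -1 were 0 genes in replicate 1 (4.6% of all tested genes), and *pfk-1.1* alone in replicate 2 (7.16%) and in replicate 3 (7.1%). The numbers of the 38 genes above 0 were 26 in replicate 1 (53% of all tested genes), 13 in replicate 2 (45.4%) and 25 in replicate 3 (47.2%). Replicate 2 thus leaned lower, with a median of -0.15, while the medians of replicates 1 and 3 were 0.12 and 0.17. The median over the 38 genes was 0.07 without replicate 3, 0.24 without replicate 2 and 0.11 without replicate 1. In the fit without replicate 3, 12 of the 38 fold changes had the opposite sign, among them *gpd-1*, *gpd-4*, *pgk-1*, *dld-1*, *mdh-1* and *icl-1*.

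Several of these genes were listed with more than 1 transcript, and in the genes that could be split the large ratios of replicate 3 belonged to only some of the reads. Of the 38 genes, 33 had more than 1 listed transcript, up to 13 for *pck-2*, and each value above is that of the transcript with the highest mean RPM. Reads of a second listed transcript were subtracted from those of the kept one in 9 genes, by a rule chosen after the values were seen. The second transcript held 20 to 80% of the kept reads and exceeded the kept one in no library. Each part had a mean of 10 reads or more. Where more than 1 transcript qualified, the one with the lowest mean was taken, so the second transcript need not be the next most abundant. The subtraction takes the reads of the second transcript as included in those of the kept one, which the files do not state for a given pair. RPM summed over all listed transcripts was 2160231 to 2236967 per library, above what counting each read once would give. Some reads were thus listed under more than 1 transcript. In replicate 3 the log2 ratio of the second transcript exceeded 1 in 6 of the 9 genes, *gpi-1*, *gpd-1*, *pck-2*, *dld-1*, *idhb-1* and *mdh-1*, while the rest of the kept transcript exceeded 1 in 0 of the 9. Over the 840 genes of the files to which the same rule applied, the second transcript did so in 21% and the rest in 6.43%. Of the 9 genes above 1 in replicate 3, this split covered 4, *gpd-1*, *dld-1*, *idhb-1* and *mdh-1*; the other 5 did not meet the rule, *pgk-1* and *ldh-1* having 1 transcript each. In replicates 1 and 2 neither did so in any of the 9.

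For *gpd-1* the second transcript, T09F3.3.2, held 279, 238 and 1262 reads in *unc-62* RNAi, against 404, 267 and 89 reads in control RNAi. The remaining reads of T09F3.3.1 were 319 and 147 in *unc-62* RNAi replicates 1 and 2, against 156 and 63 in control RNAi replicates 1 and 2. The 2 parts thus differed in opposite directions in replicates 1 and 2, and in replicate 3 the log2 ratio was 4.04 for the second transcript and 0.05 for the rest. For *mdh-1* the second transcript, F46E10.10a, held 851, 616 and 1954 reads in *unc-62* RNAi, against 909, 583 and 490 reads in control RNAi, with 442, 411 and 253 remaining reads in *unc-62* RNAi, against 304, 266 and 360 in control RNAi. There too replicate 3 stood apart only in the second transcript, at 2.23 against -0.27 for the rest.

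*pck-2* showed the same division between its named isoforms. R11A5.4c.1 had 174, 219 and 537 reads in *unc-62* RNAi, against 205, 199 and 129 reads in control RNAi, and R11A5.4b.1 had 722, 526 and 403 reads in *unc-62* RNAi, against 605, 420 and 575 reads in control RNAi. In replicate 3 the first was higher and the second lower than its control. In the WBcel235 annotation R11A5.4c.1 and the second transcript of *dld-1*, LLC1.3b, have no 3′ UTR, while the kept transcripts R11A5.4a and LLC1.3a.1 have one. For *gpi-1* and *enol-1* it is the kept transcript that has none. In *enol-1* the replicate 3 log2 ratios were -0.05 for the second transcript and -0.36 for the rest. The second transcripts of *gpd-1*, *enol-1*, *pdhb-1*, *aco-2*, *idhb-1* and *mdh-1* are not named in that annotation. In replicate 3 the second transcript exceeded the rest by more than 1 on the log2 scale in 6 of the 9 genes and in 27% of the 840, where the shares of the 840 were 2.38% in replicate 1 and 2.26% in replicate 2. What sets replicate 3 apart was not tested.

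**Figure D4:**
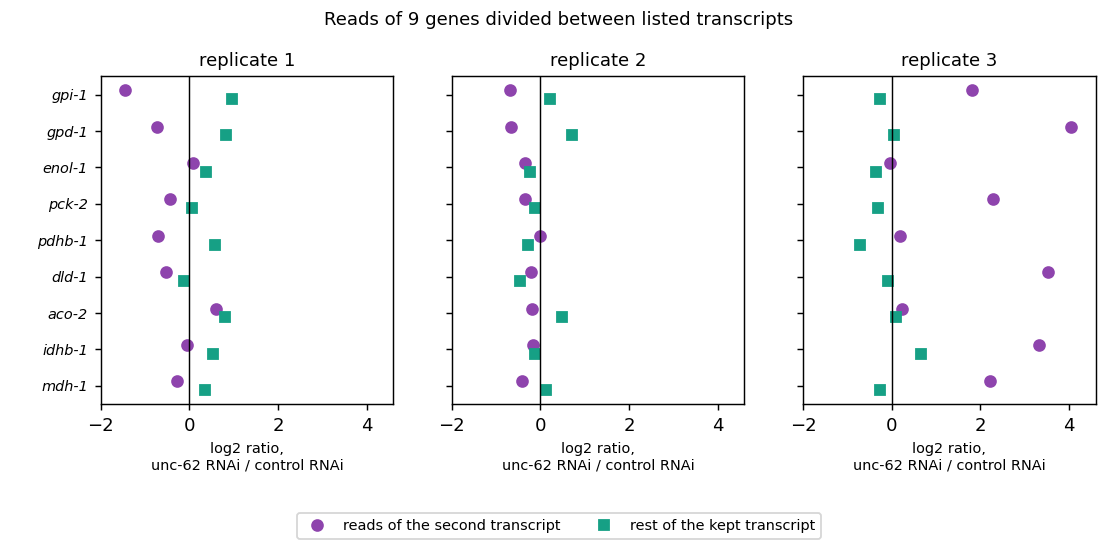
For 9 genes the log2 ratio of unc-62 RNAi to control RNAi is plotted on the horizontal axis in a panel for each replicate, circles for reads of a second listed transcript and squares for the remaining reads of the kept transcript, with 1 read added to each count. In replicate 3 the circles reach 4.04 for *gpd-1* while all squares lie below 1.

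Around the 38 enzymes, 46 further genes of carbon metabolism were listed, of which 43 were matched and 40 tested. None of the 40 was called by limma (0, against 1.31% of all tested genes; edgeR and DESeq2 each called 1), and 3 had an unadjusted p under 0.05 (7.5%, against 13.4% of all tested genes). Their median log2 fold change was 0.17, with 30 above 0 (75%, against 54.1% of all tested genes) and 10 below. The closest was *gpdh-1*, a glycerol-3-phosphate dehydrogenase that turns a glycolytic intermediate toward glycerol, known in worms for its induction by osmotic stress. It had 32, 19 and 24 reads in *unc-62* RNAi libraries, against 3, 3 and 1 reads in control RNAi libraries. All 3 *unc-62* RNAi libraries lay above all 3 controls, in a gene that passed the filter on low values through *unc-62* RNAi alone. Summed over libraries and set against uniquely mapped reads, 75 against 7 reads gave a ratio of 9.85 (exact 95% interval 4.55 to 25.3). This interval covers counting error only, not the spread between replicates or the choice by the filter. The log2 fold change was 2.90 (SE 0.47) with an adjusted p of 0.112 by limma, just outside the threshold. The gene was called in 8 of the 9 alternatives that used all libraries and tested it. These alternatives reuse the same reads and add no independent support. Adjusted p-values by limma, edgeR or DESeq2 ran between 0.00099 and 0.44 over all alternatives for *gpdh-1*. Its paralog *gpdh-2* had a log2 fold change of 0.04, the lowest of its group.

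The other neighbouring pathways held no called gene. Among glycogen and trehalose genes the log2 fold changes ran between -0.20 for *tre-2* and 1.58 for *tre-4*, both trehalases, which split trehalose into glucose. *tre-4* had 35, 16 and 107 reads in *unc-62* RNAi, against 14, 8 and 13 reads in control RNAi, so replicate 3 carried most of its value. Like *gpdh-1*, it passed the filter on low values through *unc-62* RNAi alone. The pentose phosphate pathway, a source of NADPH, spanned -0.43 for *gspd-1*, its entry enzyme, to 0.47 for the transketolase *tkt-1*. Succinate dehydrogenase and other TCA genes spanned -0.41 for the cytosolic aconitase *aco-1* to 0.48 for *sdhb-1*, the iron-sulfur subunit. Pyruvate supply and control spanned -0.19 for the mitochondrial pyruvate carrier *mpc-2* to 0.67 for *dlat-2*, and other glycolysis and hexose genes -0.51 for hexokinase *hxk-2* to 0.54 for the phosphoglucomutase *pgm-1*.

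Of the marker genes of tissues, 2 were called by limma, both lower and both among the 5 hypodermal markers tested. Over all tested genes 0.818% were called lower. The part of tissue markers in the values above was not tested. For the directions given below, 54.1% of all tested genes were above 0. Body wall muscle markers were below 0 in 11 of 12 tested (median -0.49, 0 called by limma). Their summed levels were 594 to 789 RPM in *unc-62* RNAi and 572 to 1184 RPM in control RNAi. DESeq2, which called 4.01% of tested genes, called *unc-89* and *dim-1* lower (adjusted p = 0.0793 and 0.0898). *unc-89* passed the filter through control RNAi alone. Hypodermal markers were below 0 in 4 of 5 tested (median -1.30). These 4 were all cuticle collagen genes, *dpy-5*, *rol-6*, *sqt-3* and *col-19*. The other tested marker, *lin-26*, was above 0, at 0.37 (adjusted p = 0.755 by limma), so the median describes collagen genes. Of the collagen genes, *dpy-5* and *rol-6* were called lower. Their log2 fold changes were -4.61 and -2.64 (adjusted p = 0.0674 and 0.0815 by limma). These 2 genes passed the filter on low values through control RNAi alone, the treatment in which they were higher. *dpy-5* had 4, 30 and 7 reads in *unc-62* RNAi, against 89, 251 and 567 reads in control RNAi. *rol-6* had 6, 5 and 8 reads in *unc-62* RNAi, against 21, 29 and 101 reads in control RNAi. The hypodermal sums were 203 to 363 RPM in *unc-62* RNAi and 342 to 680 RPM in control RNAi, and rested mostly on *col-19*. The hypodermal markers *dpy-7* and *bli-1* were at or near 0 in all 6 libraries. Intestinal markers were above 0 in 7 of 9 tested (median 0.34, 0 called by limma), with medians of 1.13, 0.37 and -0.09 in replicates 1, 2 and 3. Their sums of 1120 to 2218 RPM in *unc-62* RNAi and 222 to 508 RPM in control RNAi rested on *asp-1*. *asp-1* had 1238, 1068 and 2199 RPM in *unc-62* RNAi, against 467, 470 and 199 RPM in control RNAi. Its log2 fold change was 1.99 (adjusted p = 0.187 by limma and 0.0211 by DESeq2). Neuronal markers, with 4 tested, had a median of -0.27, with sums of 29.6 to 39.0 RPM in *unc-62* RNAi and 22.3 to 45.7 RPM in control RNAi. Germline markers, with 8 tested, had a median of 0.01 and sums of 1084 to 1591 RPM in *unc-62* RNAi and 969 to 1392 RPM in control RNAi. One of them, the P granule helicase *glh-1*, had a log2 ratio of 4.34 in replicate 3. In that replicate the median of the 8 germline markers was 0.10, so *glh-1* stood apart from most of its list.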

How the data were processed

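The study sequenced 3 *unc-62* RNAi and 3 control RNAi libraries. Per the paper's methods and the labels, the authors processed reads with CASAVA 1.7.0, removed those with 10 or more consecutive A or T, mapped 36-base reads to WS215 with Bowtie 0.12.7, counted unique sense-strand reads and deposited a signal, RPM, for 25531 transcripts. Dropping reads that map equally well elsewhere lowers near-identical paralogs.

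Deposited values were turned back into reads: 100.0% of 153186 were whole within 0.01. The 2 identifiers that name no gene held 0 reads. The transcript with the highest mean was kept for each gene. Symbols were taken from RefSeq's WBcel235 gene table, which covers 16959 of 17682 genes; it is a later assembly than WS215, so no coordinates are given. *fgt-1*, *sdhc-1* and *gbe-1* were not matched.

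limma 3.58.1 (R 4.3.3) was fitted to log2(RPM + 0.05) with TMM scaling, a variance trend and the replicate number as a block over 7333 genes, and p-values were adjusted by Benjamini-Hochberg, with genes called under 0.1. The log2(RPM + 0.05) scale understates the fold changes of low genes. Alternatives were a pseudocount of 0.5, no filter, a mean of 1 RPM, no TMM, DESeq2 size factors, no block, each replicate left out, edgeR 4.0.16 and DESeq2 1.42.0 on recovered reads, rank products with 10000 permutations, and the sum over transcripts. The sum over transcripts counts a read again for each further transcript under which it is listed. Python 3.11.15, pandas 2.3.3 and scipy 1.17.1 were used. Scripts were tested on simulated data.

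Per-library values were given for called genes, those with an unadjusted p under 0.05, the most abundant of each role, isozymes, *ldh-1*, *fbp-1*, *pyc-1*, *icl-1*, and the 2 highest and 2 lowest fold changes, and of neighbouring genes the extremes of each role are named, by fold change. *tpi-1*, *idhb-1*, *ogdh-1* and the marker *asp-1* were added after their values were seen. Members and lists were chosen with earlier results of these data known.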

Additional observations from a re-analysis of the deposited data

How the results depend on the processing

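Counts over all 7333 tested genes moved with the method while that of the 38 genes stayed at 0 in each alternative that used all 6 libraries, with a lowest adjusted p of 0.31 over 9 of them. Against 96 genes called by limma, no filter on low values gave 255, DESeq2 294 and rank products 182, and leaving out a replicate gave 0 to 1180 (15 without replicate 2, and 0 without replicate 1, with 554 at p under 0.05 before adjustment). Of the 38 genes, leaving out a replicate called 0 to 1, *tpi-1* without replicate 3. Of the 40 neighbouring genes 1, *gpdh-1*, was called with a pseudocount of 0.5, no filter, no TMM scaling, edgeR, DESeq2, rank products and the sum over transcripts, and 0 to 3 when a replicate was left out (*gpdh-1*, *pfkb-1.2* and *pgm-1* without replicate 3). The deviations of same-numbered libraries from their group means correlated at 0.417, 0.198 and -0.183, so not every same-numbered pair deviated together, and no label ties equal numbers to one batch; without the replicate block 142 genes, 0 of the 38 and 1 of the 40 were called. The median over all tested genes lay between 0.01 and 0.06 with any scaling or test.

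When a replicate was left out, 22 of the 38 fold changes changed sign, 7 without replicate 1, 5 without replicate 2 and 12 without replicate 3. Their lowest and highest log2 values over these fits were -0.25 and 0.11 for *hxk-1*, -0.18 and 0.16 for *aldo-1*, -0.13 and 0.073 for *aldo-2*, -0.16 and 1.43 for *gpd-1*, -0.14 and 0.18 for *gpd-3*, -0.44 and 1.85 for *gpd-4*, -0.24 and 0.50 for *pgk-1*, -0.25 and 0.0498 for *enol-1*, -0.004 and 0.13 for *pyk-1*, -0.13 and 0.61 for *pyc-1*, and -0.10 and 0.32 for *pck-2*. They were -0.25 and 0.39 for *fbp-1*, -0.25 and 0.059 for *pdhb-1*, -0.30 and 0.48 for *dld-1*, -0.28 and 0.13 for *cts-1*, -0.30 and 0.009 for *idha-1*, -0.027 and 0.16 for *idhg-1*, -0.17 and 0.20 for *dlst-1*, -0.0245 and 0.20 for *mdh-2*, -0.022 and 0.42 for *idh-1*, -0.14 and 0.76 for *mdh-1*, and -0.080 and 0.20 for *icl-1*. With reads summed over transcripts *idha-1* was 0.016. The cause was not tested. With 8 to 64511 reads per library, and under 50 in some library for 9 genes such as *pfk-1.1*, counting error limits the low ones most.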
